A study of Mus musculus with 9 samples.

Results

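Among 9 RNA-seq libraries of mouse ventral hippocampus, 3 held little RNA of the transcription factor gene Prox1, and their expression is described here beside that of the other 6. The 3 were the libraries labelled CRS-NKAα1 replicate 1, CRS-NKAα1 replicate 2 and CRS-WT-DR5-12D replicate 1, and wherever 3 values are listed for them below they stand in that order. They were chosen by their Prox1 values, which lay under 3 FPKM, a fragment count divided by gene length and library depth (at 1.28, 0.900 and 1.0003), while the other 6 held 7.51 to 11.6. The other 6 were the 3 CRS-WT libraries, CRS-NKAα1 replicate 3 and CRS-WT-DR5-12D replicates 2 and 3. Because measured values of the same libraries set the split, all differences between the 3 and the 6 are given as descriptions, with no test.

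The study compared gene expression in freshly taken ventral hippocampus between mice of 3 groups with 3 libraries each. All 9 libraries carry the mark CRS, which the labels do not spell out, so no library without it serves as a control. The CRS-NKAα1 group is written as CRS-NKAα1+/- in the design text, a mark that denotes 1 intact copy of a gene. DR5-12D, given to wild-type mice in the group CRS-WT-DR5-12D, is known as an antibody. The sources used here give neither its dose and timing nor the age, sex and strain of the mice. Nothing in the labels ties a library to an animal. A p value below therefore measures how these samples spread, and part of that spread may be technical.

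The hippocampal formation is a chain of regions with distinct neurons. Granule cells of the dentate gyrus, which keep Prox1 throughout life, send mossy fibres to CA3, CA3 projects to CA1, and CA1 projects to the subiculum and entorhinal cortex. Neighbouring neocortex is built in layers whose projection neurons are marked by transcription factors such as Cux2 and Tbr1, so a set of region-linked genes reports which neurons contributed RNA to a tissue sample. In bulk tissue, fewer cells of a type and less RNA per cell cannot be told apart.

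Promoters of 2 genes that were low in the 3 libraries and of 2 that were high show what lies at the start sites of the genes at the ends of the split. The sequences are those RefSeq gives on GRCm38.p6, from 250 bases before to 50 after the first listed start, and capitals mark a match to the E-box CAGATG, the form bound by neurogenic basic helix-loop-helix factors. Prox1 lies at chr1:190170778-190171077 on the minus strand, C1ql2 at chr1:120340332-120340631 on the plus strand, Lamp5 at chr2:136052089-136052388 on the plus strand and Dkkl1 at chr7:45211834-45212133 on the minus strand.
Prox1: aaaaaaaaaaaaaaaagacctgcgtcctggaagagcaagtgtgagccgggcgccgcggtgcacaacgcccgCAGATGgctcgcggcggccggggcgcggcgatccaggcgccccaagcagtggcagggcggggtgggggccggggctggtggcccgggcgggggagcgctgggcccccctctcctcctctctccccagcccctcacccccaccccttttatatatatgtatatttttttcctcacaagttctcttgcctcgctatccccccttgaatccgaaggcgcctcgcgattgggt
C1ql2: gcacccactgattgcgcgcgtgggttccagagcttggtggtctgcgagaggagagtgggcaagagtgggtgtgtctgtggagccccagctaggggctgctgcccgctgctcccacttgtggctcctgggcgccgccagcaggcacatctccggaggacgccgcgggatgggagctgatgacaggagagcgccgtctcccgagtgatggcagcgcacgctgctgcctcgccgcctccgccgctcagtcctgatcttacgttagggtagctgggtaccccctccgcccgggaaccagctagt
Lamp5: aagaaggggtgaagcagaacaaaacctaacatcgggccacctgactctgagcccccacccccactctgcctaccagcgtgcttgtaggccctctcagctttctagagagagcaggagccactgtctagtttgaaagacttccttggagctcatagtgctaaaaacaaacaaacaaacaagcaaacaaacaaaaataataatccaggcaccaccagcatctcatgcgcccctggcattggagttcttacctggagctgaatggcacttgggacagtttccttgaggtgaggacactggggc
Dkkl1: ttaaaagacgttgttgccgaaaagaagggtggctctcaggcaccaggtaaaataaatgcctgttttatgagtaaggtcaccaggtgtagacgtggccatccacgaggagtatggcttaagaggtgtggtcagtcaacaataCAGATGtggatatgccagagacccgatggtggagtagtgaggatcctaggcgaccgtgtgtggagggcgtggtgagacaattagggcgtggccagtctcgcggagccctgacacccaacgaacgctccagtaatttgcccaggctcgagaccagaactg
Both strands were searched, and the letters CAGATG occur in the Prox1 and Dkkl1 windows. Across all genes with a RefSeq window, 129 of the 203 genes called low and 152 of the 235 called high, by the rule given below, could be searched. The E-box was held by 17.1% of the low and 13.2% of the high genes, beside 11.9% of 11343 promoters of all genes measured. The cyclic AMP response element TGACGTCA was held by 0 of the 129, by 3.29% of the 152 and by 3.16% of all. The early growth response letters GCGTGGGCG were held by 0, 1.97% and 1.22%, the T-box letters TCACACCT by 0.775%, 0.658% and 0.82%, and the MEF2 motif by 3.1%, 2.63% and 2.97%, each in the order low, high and all. The E-box matches in the printed windows overlap no match to another of these motifs, and a match describes letters only.

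Depth recovered from the deposited values was 15117452 to 27323379 fragments per library, and the 3 low-Prox1 libraries did not stand apart in it. They did stand apart in the sum of all FPKM values, at 516373 to 540317 against 336555 to 455132, and in the miRNA gene model Gm23935, at 204782, 202817 and 173123 FPKM against 15719 to 143664. That sum includes Gm23935, so rescaling to equal sums also depends on its value. The part of Gm23935 in the differences below was not tested. Rescaling every library to the same sum moved the median difference of all genes to −0.36, so small differences on the deposited scale flip under that scaling, and this is stated where it matters.

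A gene was called different between the 3 and the 6 when no library of one side overlapped the other side and the difference of the mean log2(FPKM + 1) was at least 1. Of 17753 genes whose mean FPKM reached 0.5, 203 were called lower (1.14%) and 235 higher (1.32%) in the 3 libraries. Without the limit on size, 2053 genes (11.6%) lay below and 2402 (13.5%) above the range of the other 6, and each list's count below is to be read beside these shares. The median difference of all genes was −0.0015 on the log2 scale. With every library rescaled to the same FPKM sum, 680 genes were called lower and 150 higher. Without the limit on size, 7722 genes then lay below and 554 above. With each library scaled by its upper quartile instead, 206 genes were called lower and 226 higher. On that scale 2268 lay below and 2193 above without the limit on size. The list counts below and the shares of 11.6% and 13.5% are those of the deposited scale, and the list counts were not repeated on another. The genes nearest the limit were Mei1 at 1.0006, Medag at 1.002 and Lurap1l at −1.0044 inside it, and Ptchd1 at 0.998, Gm13362 at 0.997 and Ldlrad4 at 0.992 outside it.

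The called genes were chosen for the gap between the sides, so their means describe the choice. The mean log2(FPKM + 1) over the 203 lower genes was 1.63, 1.64 and 1.64 in them and 3.08 to 3.14 in the other 6, and over the 235 higher genes it was 3.58, 3.60 and 3.65 against 2.12 to 2.26. Between a low-Prox1 library and one of the other 6, a median of 898 genes lay apart by at least 1 on the log2 scale over 18 pairs (653 to 1060). Between 2 of the 3 it was 338 over 3 pairs (335 to 491), and between 2 of the 6 it was 357 over 15 pairs (183 to 462). A pair of libraries from different sides was thus further apart than any pair from the same side.

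The markers of the split come first. C1ql2 (ENSMUSG00000036907, chr1:120340582-120343174), a secreted synaptic organizer that granule cells place at mossy fibre synapses, stood at 0.926, 0.596 and 0.973 FPKM in the 3 and at 23.6 to 40.1 (median 34.4) in the other 6. Prox1 (ENSMUSG00000010175, chr1:190118035-190170714) averaged 1.06 ± 0.196 FPKM (SD, n = 3) against 9.37 ± 1.53 FPKM (SD, n = 6) and had a log2 difference of −2.32, a gap that the rule itself set through the limit on each library's Prox1 value. On the other side, Lamp5 (ENSMUSG00000027270, chr2:136052239-136069917), a lysosome-associated membrane protein of upper-layer cortical neurons and of 1 class of interneurons, stood at 94.9, 97.2 and 64.5 FPKM in the 3 and at 12.2 to 15.9 (median 13.4) in the 6. Tbr1 (ENSMUSG00000035033, chr2:61802930-61814114), a T-box factor of cortical projection neurons, stood at 21.5, 17.6 and 20.2 FPKM against 4.08 to 6.34 (median 5.73). Neither gene overlapped between the sides, and Lamp5 was 6.31-fold and Tbr1 3.57-fold higher in the means of the 3 libraries.

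**Figure D1:**
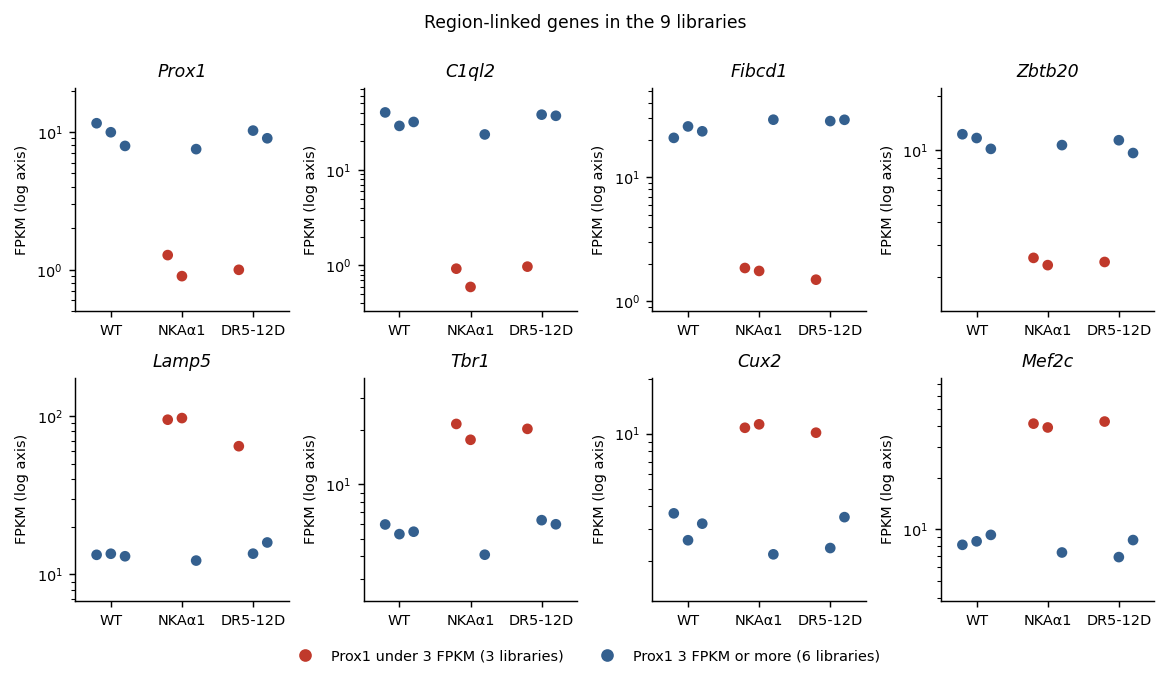
FPKM (log axis) of 8 region-linked genes in the 9 libraries by labelled group, with 1 point per library, red for the 3 libraries with Prox1 under 3 FPKM and blue for the other 6. In every panel the red points lie on one side of all blue points, including the blue points of the same labelled group, with Fibcd1 between 1.49 and 1.86 FPKM in red and between 20.8 and 29.2 FPKM in blue.

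The name low-dentate was narrower than what the libraries showed. Fibcd1 (ENSMUSG00000026841, chr2:31813290-31846005), a chitin-binding membrane receptor enriched in CA1 pyramidal cells, stood at 1.86, 1.76 and 1.49 FPKM in the 3 and at 20.8 to 29.2 (median 27.1) in the 6, which is 6.51% of the mean of the 6. Zbtb20, a zinc finger factor that specifies hippocampal pyramidal neurons, stood at 2.54, 2.32 and 2.41 FPKM against 9.64 to 12.2 (median 11.01). Neither is a granule cell marker alone, and neither overlapped between the sides. C1ql2 stood at 2.502% and Prox1 at 11.3% of the other mean, so the share kept by this CA1 gene lay between those of both granule cell genes. For this reason the 3 are named here by the rule, as the low-Prox1 libraries.

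Dentate gyrus granule cell genes were low as a list, though not in every member. Of 20 listed genes, all measured, 12 lay below the range of the other 6 libraries and 2 above it, with a median log2 difference of −0.81. The list holds Prox1, and without it 11 of 19 lay below and 2 above, with a median of −0.79. Lct, the lactase gene that marks granule cells in mouse, stood at 0.140, 0.172 and 0.202 FPKM against 2.23 to 5.17 (median 3.31), and Dsp, a desmosomal plaque protein, at 0.0595, 0.0229 and 0.0592 against 1.53 to 3.25 (median 1.799). Cdh9, a cadherin of the mossy fibre synapse, stood at 3.16, 2.83 and 5.54 against 8.51 to 12.1 (median 9.42). These 3 genes were low in all 3 libraries, although Cdh9 was higher in the DR5-12D library than in the pair of CRS-NKAα1 libraries. Calb1, the calcium buffer calbindin that granule cells share with other neurons, overlapped between the sides, at 21.9, 16.8 and 20.6 against 19.3 to 26.4 (median 21.7). Both members that lay above were C1ql3, a relative of C1ql2 that shares 64.2% of its exon bases with another annotated gene, at 47.9, 62.4 and 59.2 FPKM against 31.2 to 39.2 (median 34.6), and Pdzd2, a PDZ domain protein, at 4.45, 5.17 and 3.25 against 1.63 to 2.43 (median 2.15).

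Genes of granule cell precursors and of mossy cells lay on both sides. Of 14 precursor and neuroblast genes, 12 were measured, 5 lay below and 2 above, and the median was −0.32. Calb2, the calcium buffer calretinin, made by young granule cells and mossy cells in mouse and by other neurons, stood at 6.60, 5.57 and 7.13 FPKM against 19.8 to 40.8 (median 27.3). Neurod1, a basic helix-loop-helix factor of maturing granule cells, stood at 2.62, 2.77 and 2.14 against 4.94 to 6.30 (median 5.91). Both were lower in all 3 libraries, whereas Dcx, the microtubule protein doublecortin of migrating young neurons, was higher, at 2.22, 2.03 and 3.05 against 1.29 to 1.74 (median 1.48). Among 10 mossy cell genes, 2 lay below and 1 above, near the shares over all genes of 11.6% and 13.5%, with a median of −0.23.

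Pyramidal cell lists of CA1, CA2 and CA3 lay lower as well. In the CA1 list, 8 of 14 tested members lay below and 3 above the range of the other 6, with a median of −0.42. Gpr161, a ciliary G protein-coupled receptor, stood at 1.25, 1.18 and 1.12 FPKM against 9.09 to 12.0 (median 9.85), and Spink8, a Kazal-type peptidase inhibitor gene that marks CA1 in mouse, at 5.91, 6.61 and 2.42 against 15.3 to 28.5 (median 21.3). Htr1a, the inhibitory serotonin receptor of CA1 and other regions, stood at 2.91, 2.32 and 2.73 against 6.24 to 7.74 (median 7.09). Each of the 3 was low in all 3 libraries, and Spink8 was lowest in the DR5-12D library. The CA1-listed genes that lay above included Mpped1 and Meis2, and Meis2 stands in the amygdala list too.

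The CA2 list had 11 measured members, of which 6 lay below and 0 above, with a median of −0.58. Necab2, a neuronal calcium-binding protein, stood at 17.2, 17.6 and 17.4 FPKM against 38.2 to 60.9 (median 54.0), and Ntf3, the growth factor neurotrophin 3, at 0.745, 0.670 and 0.890 against 2.97 to 4.44 (median 3.75). Vit, an extracellular matrix protein, stood at 0.470, 0.292 and 0.182 against 1.65 to 2.86 (median 1.94). All 3 left a gap between the sides. In the CA3 list of 14, 6 lay below and 1 above, with a median of −0.30. Homer3, a postsynaptic scaffold protein whose exons share 25.4% of their bases with another gene, stood at 4.86, 4.58 and 4.56 against 13.5 to 18.4 (median 16.3). Grik4, a kainate receptor subunit of CA3, stood at 5.41, 5.66 and 5.67 against 7.91 to 10.8 (median 9.01). Its gap was smaller than that of Homer3 and those of Gpr161, Spink8 and Htr1a in the CA1 list. Nectin3, an adhesion molecule listed for CA3 and for upper layers, overlapped between the sides.

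Markers of the ventral pole and of the subiculum and entorhinal cortex were also lower. Of 14 ventral hippocampus genes, 9 lay below and 1 above, with a median of −0.65. Dcn, the matrix proteoglycan decorin, made by ventral CA1 neurons and by meningeal cells, stood at 4.22, 5.21 and 1.22 FPKM against 10.4 to 22.03 (median 15.2), and Dlk1, a Notch-family ligand, at 0.248, 0.234 and 0.330 against 1.19 to 3.43 (median 2.18). Coch, the matrix protein cochlin, was the 1 member above, at 10.8, 9.78 and 6.34 against 1.001 to 2.20 (median 1.49). In the subiculum and entorhinal list, 9 of 15 measured genes lay below and 1 above, with a median of −0.80. Nnat, an imprinted membrane proteolipid, stood at 60.4, 70.9 and 80.3 FPKM against 318 to 468 (median 398), and Nts, the neuropeptide neurotensin, at 0.409, 0.425 and 0.428 against 3.40 to 9.28 (median 5.44). Gpr101, an orphan G protein-coupled receptor, stood at 0.0826, 0.0898 and 0.106 against 1.28 to 4.49 (median 2.92), so it was near 0 in the 3 libraries and varied widely among the other 6.

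Upper-layer cortical genes lay on the other side. Of 16 listed genes, all measured, 13 lay above the range of the other 6 and 0 below, with a median of 0.96. The list mean of log2(FPKM + 1) was 3.13 to 3.18 in the 3 libraries and 2.07 to 2.18 in the other 6. Cux2, a homeobox factor of upper layers, stood at 10.8, 11.2 and 10.1 FPKM against 2.18 to 3.66 (median 2.91). Stard8, a GTPase-activating protein, stood at 7.81, 8.30 and 5.65 against 1.28 to 1.55 (median 1.38). Both genes gave the same order of the sides, and so did Rasgrf2, a Ras exchange factor, at 19.0, 17.4 and 15.8 against 7.06 to 9.39 (median 7.46). This order held with every library rescaled to the same sum, where the list median was 0.72. The part of upper-layer RNA in the other differences was not tested.

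Deep-layer cortical genes split both ways, with 6 of 16 measured genes below, 4 above and a median of −0.14. Crym, a thyroid hormone-binding protein, stood at 44.3, 52.7 and 46.1 FPKM against 71.6 to 132 (median 103), and Bcl11b, a zinc finger factor of subcortically projecting neurons, at 7.23, 6.80 and 8.37 against 11.7 to 15.3 (median 14.4). Deptor, an inhibitor of mTOR kinase, was higher, at 3.69, 3.08 and 3.72 against 0.925 to 1.6002 (median 1.36). Fezf2, the factor that specifies deep-layer projection neurons, overlapped, at 15.2, 20.8 and 21.2 against 13.3 to 18.4 (median 15.8). The list therefore had no single direction.

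Other neighbouring regions were mixed too. In the amygdala and claustrum list, 6 of 16 lay below and 4 above. Its members Nr2f2, an orphan nuclear receptor, at 0.563, 0.589 and 0.460 FPKM against 2.88 to 5.51 (median 4.53), and Meis2, a homeobox factor, at 13.3, 12.0 and 12.1 against 3.26 to 4.35 (median 4.07), lay on opposite sides. Of 12 measured striatal genes, 5 lay above and 1 below, with a median of 0.13 that turned to −0.13 with equal FPKM sums. The defining striatal gene Adora2a, an adenosine receptor, failed the limit on mean FPKM and stayed under 0.626 FPKM in all 9 libraries. Of 10 measured thalamic genes, 5 lay below and 2 above. The 5 measured hypothalamic and brainstem genes had 1 below and 0 above.

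**Figure D2:**
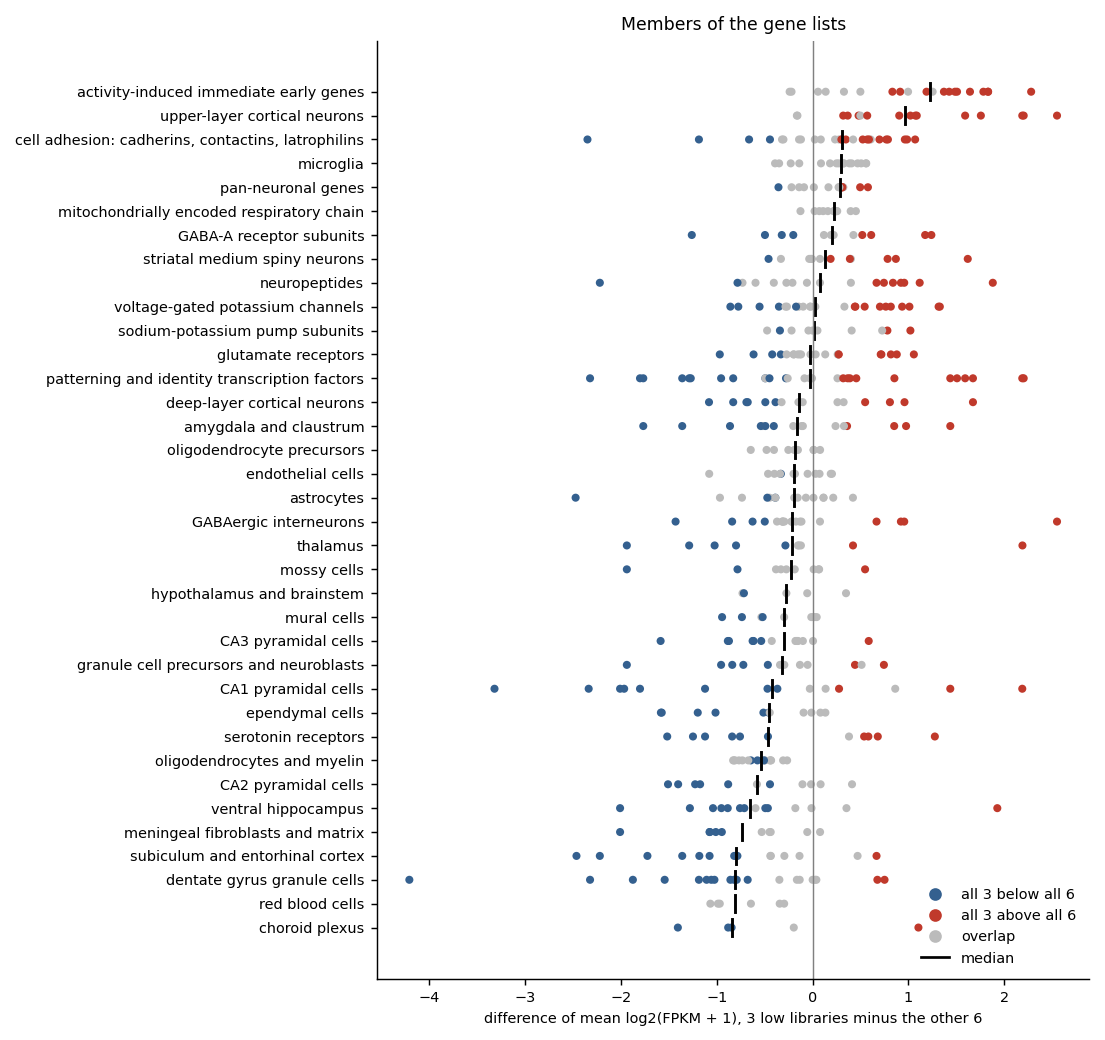
Difference of the mean log2(FPKM + 1), 3 low-Prox1 libraries minus the other 6, for each measured gene of 36 lists, with 1 point per gene, coloured where the sides do not overlap, and a black bar at the list median. The lists stand in order of their median, with the early-response list at 1.22 and the upper-layer list at 0.96 at the top, and the granule cell list, which holds Prox1, at −0.81 near the bottom.

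The 12 named genes that were lowest in the 3 libraries, by a rule on the size of the difference, reached from C1ql2 at −4.21 to Pcdh20, a protocadherin, at −2.35. Cabp7, a calcium-binding protein of the Golgi with 12.9% of its exon bases shared, stood at 12.7, 9.06 and 9.88 FPKM against 80.3 to 102 (median 88.2). It held a narrow range inside each side. Shisa6, an auxiliary subunit of AMPA receptors, stood at 1.11, 1.08 and 1.29 against 12.5 to 15.9 (median 13.3), and Npy2r, the Y2 receptor for neuropeptide Y, at 1.02, 0.822 and 1.004 against 10.4 to 16.6 (median 11.3). Cpne7, a calcium-dependent membrane-binding copine, stood at 16.7, 17.2 and 14.1 against 82.6 to 138 (median 108). These genes kept 11.7%, 8.497%, 7.77% and 14.9% of the other mean, in the order given. Lrrc10b stood at 1.75, 1.13 and 1.40 FPKM against 10.8 to 19.9 (median 13.8), Doc2b, a calcium sensor of vesicle release, at 1.71, 2.90 and 3.50 against 16.6 to 20.7 (median 17.9), and Pcdh20 at 2.24, 2.49 and 2.91 against 15.5 to 18.7 (median 17.2). Agt, the hormone precursor angiotensinogen, which astrocytes make in brain, stood at 5.10, 3.55 and 2.97 against 14.8 to 55.5 (median 23.0), with its highest value in CRS-NKAα1 replicate 3.

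The 12 named genes that were highest began with Trbc2, a constant segment of the T cell receptor β chain, at 30.2, 30.3 and 40.2 FPKM against 0.609 to 3.44 (median 1.603). Trbj2-2, a joining segment of the same chain, was listed at 0 in all of the other 6 and rested on 4, 7 and 13 fragments in the 3, so no fold is given. Of other genes of T cells, Cd3e reached at most 0.357, Cd4 0.360 and Cd8a 0.874 FPKM in any library, the last on 72 fragments. Trac, the α chain constant segment, stood at 0.683, 2.08 and 1.31 FPKM in the 3 and at 1.30 to 3.33 in the other 6, so it overlapped between the sides. Trbc1, the other β chain constant segment, overlapped too, at 0.682, 0.884 and 0.204 FPKM against 0.141 to 1.56. These other genes of T cells were added after the values were seen, and the part of T cells in the values of Trbc2 was not tested. Dkkl1, a secreted dickkopf-like protein, stood at 19.3, 23.3 and 26.2 FPKM against 0.769 to 1.56 (median 1.03), and Cckbr, the brain receptor for cholecystokinin, at 31.4, 34.9 and 36.4 against 3.37 to 5.89 (median 3.85). The means of the 3 were 17.7-fold, 20.8-fold and 8.10-fold those of the 6 for Trbc2, Dkkl1 and Cckbr.

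Mef2c, a MADS-box factor of excitatory cortical neurons, stood at 41.3, 39.2 and 42.4 FPKM against 6.90 to 9.29 (median 8.32), with a spread inside each side far below the gap. Rasgef1c, a Ras exchange factor, stood at 7.94, 9.34 and 9.59 against 0.503 to 1.15 (median 0.937), and Ramp3, a partner of calcitonin-family receptors, at 14.9, 16.8 and 19.3 against 2.52 to 3.64 (median 2.81). Tnnc1, the slow and cardiac form of troponin C, stood at 10.7, 11.6 and 25.1 against 1.47 to 3.42 (median 2.33), and Cited4, a coactivator-binding protein, at 11.2, 8.80 and 4.58 against 0.611 to 1.42 (median 1.06). In these last 2 genes the 3 libraries differed among themselves: Tnnc1 was higher and Cited4 lower in the DR5-12D library than in both CRS-NKAα1 libraries.

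Immediate early genes, which neurons switch on within minutes of activity, lay higher in the 3 libraries. Of 20 listed genes, all measured, 12 lay above and 0 below the range of the other 6, 10 of them by at least 1 on the log2 scale, and the median was 1.22. Egr2, a zinc finger factor, stood at 7.29, 7.17 and 9.73 FPKM against 0.584 to 1.25 (median 0.778), and Egr1, of the same family, at 61.0, 65.9 and 70.5 against 12.5 to 22.8 (median 19.2). Arc, which drives removal of AMPA receptors from synapses, stood at 62.8, 66.2 and 118 against 20.8 to 41.6 (median 28.6). Fos, an AP-1 subunit, stood at 16.1, 17.1 and 25.5 against 2.36 to 9.10 (median 6.36), Nptx2, a secreted pentraxin that clusters AMPA receptors, at 18.3, 29.5 and 22.5 against 5.42 to 7.70 (median 5.63), and Npas4, a factor specific to calcium entry, at 5.15, 6.27 and 15.5 against 1.27 to 3.33 (median 2.43). All 6 were higher in each of the 3 libraries, and Arc, Fos and Npas4 were highest in the DR5-12D library. Fosl2 and Nr4a3 overlapped between the sides, at differences of −0.22 and −0.24. Jun, another AP-1 subunit, stands in the granule cell list and was lower, at 18.4, 16.3 and 15.3 against 32.0 to 40.5 (median 35.3).

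Neuronal genes in general moved little by comparison. Of 16 pan-neuronal genes, 7 lay above and 1 below, and the median of 0.28 turned to −0.12 with equal FPKM sums. Snap25, a vesicle fusion protein, stood at 267, 257 and 288 FPKM against 168 to 212 (median 175), and Slc17a7, the vesicular glutamate transporter of cortical and hippocampal neurons, at 253, 242 and 257 against 193 to 216 (median 201). The gaps were narrow beside those of the region-linked genes. Among 20 interneuron genes, 4 lay below and 4 above, with a median of −0.22. Lamp5 and Vip, the latter the vasoactive intestinal peptide at 11.6, 8.79 and 8.84 against 3.10 to 5.15 (median 4.72), were among those above, and Kit, a receptor tyrosine kinase, was among those below, at 2.96, 2.45 and 2.92 against 7.54 to 10.3 (median 9.48).

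Genes of the ventricle lining and of the meninges were lower. Of 11 measured ependymal genes, 6 lay below and 0 above, with a median of −0.46. Foxj1, the master factor of motile cilia, stood at 1.07, 0.993 and 0.713 FPKM against 2.94 to 4.18 (median 3.28), and Ccdc153, a coiled-coil protein that marks ependyma, at 0, 0.0434 and 0.131 against 1.42 to 3.51 (median 1.91). Both were low in each of the 3, and Ccdc153 rested on 0, 2 and 7 fragments there. The choroid plexus list had 5 of 14 members measured, of which 3 lay below and 1 above. Ttr, the thyroid hormone carrier transthyretin, stood at 0.262, 0.761 and 0.407 against 0.805 to 8.64 (median 2.16), and Enpp2, the lysophospholipase autotaxin, which oligodendrocytes also make, was the member above, at 37.2, 33.6 and 28.2 against 9.39 to 20.8 (median 14.3). The defining choroid genes Folr1 and Kcne2 failed the limit on mean FPKM. Of 10 measured meningeal and matrix genes, 5 lay below and 0 above, with Ogn, a small leucine-rich proteoglycan, at 1.19, 0.447 and 0.253 against 1.84 to 2.68 (median 2.12). The part of ventricular and meningeal tissue in the split was not tested.

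Glia and vessels showed fewer gaps. In the astrocyte list, 3 of 15 lay below and 0 above, among them Agt, while Gfap, the intermediate filament protein, ranged from 15.3 to 145 FPKM among the 3 alone. In the myelin list, 3 of 16 lay below and 0 above, all 16 differences were negative, and the median was −0.54. The median was −0.22 inside CRS-NKAα1 and −0.48 inside CRS-WT-DR5-12D, and the list means of the sides overlapped. Mbp, a main myelin protein, overlapped between the sides. No member of the oligodendrocyte precursor list of 10, the microglia list of 16 or the list of 6 measured red blood cell genes left a gap. The endothelial list had 1 of 12 below, and the mural list 3 of 9, with 0 above in either, beside 11.6% below and 13.5% above over all genes. The 13 mitochondrially encoded genes all overlapped, with a median of 0.22 that turned to −0.17 with equal FPKM sums.

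Receptors of the GABA-A class lay on both sides, with 4 of 12 measured subunits below and 4 above. Gabra5, the extrasynaptic α5 subunit that hippocampal pyramidal cells carry, stood at 20.9, 21.5 and 22.9 FPKM against 49.1 to 61.6 (median 51.7). Gabrd, the δ subunit, stood at 18.4, 18.4 and 20.0 against 5.34 to 9.06 (median 7.70), and Gabra3, the α3 subunit, at 35.6, 33.8 and 40.9 against 10.5 to 18.6 (median 16.5). The α5 subunit was thus lower and the δ and α3 subunits higher in each of the 3 libraries. Gabrd is known from granule cells as well as from cortex, and it did not follow the granule cell list.

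Among 21 glutamate receptor genes, 4 lay below and 7 above, with a median of −0.02. Gria1, an AMPA receptor subunit, stood at 67.9, 60.7 and 59.6 FPKM against 117 to 128 (median 125), and Grm8, a presynaptic metabotropic receptor, at 2.66, 2.88 and 3.11 against 0.652 to 1.10 (median 0.843). Of 24 voltage-gated potassium channel genes, 5 lay below and 10 above. Kcnv1, a modifier subunit, stood at 18.6, 19.4 and 20.3 against 5.71 to 8.53 (median 7.41), and Kcnip2, a channel-interacting calcium sensor, at 34.0, 31.5 and 29.3 against 52.2 to 65.9 (median 57.2). For these 4 genes each of the 3 libraries lay on the same side.

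Serotonin receptors were divided, with 6 of 11 measured genes below and 4 above. Htr5b stood at 0.528, 0.707 and 0.355 FPKM against 2.72 to 4.71 (median 3.30), and Htr4, which raises cyclic AMP, at 0.343, 0.417 and 0.385 against 1.83 to 3.15 (median 2.19). Htr2a, the excitatory receptor of cortical pyramidal neurons, stood at 5.45, 5.41 and 4.31 against 0.901 to 1.75 (median 1.64). The first pair was lower and Htr2a higher in all 3. Nr3c2, the mineralocorticoid receptor, which binds corticosterone with high affinity in hippocampus, was called lower, at 3.87, 3.42 and 3.97 FPKM against 14.1 to 20.4 (median 15.4), while Nr3c1, the glucocorticoid receptor, overlapped, at 10.9, 9.07 and 12.3 against 7.14 to 10.6. This pair was named after its values were seen.

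Of 17 neuropeptide genes, 7 lay above and 2 below. Adcyap1, the precursor of the peptide PACAP, stood at 12.5, 18.9 and 13.2 FPKM against 2.28 to 5.39 (median 3.17), Npy, neuropeptide Y, at 102, 88.7 and 120.0 against 47.3 to 60.2 (median 55.0), and Pdyn, prodynorphin, at 8.98, 8.52 and 6.41 against 2.57 to 3.97 (median 3.04). Pdyn is made by granule cells as well as by cortical neurons, and it was higher in each of the 3 libraries. Npy and its receptor gene Npy2r lay on opposite sides.

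Transcription factors of regional identity were split evenly, with 11 of 29 measured genes below (Prox1 among them) and 11 above, 6 of them called each way. Besides Prox1, Zbtb20 and Nr2f2, those below included Lhx9, a LIM homeobox factor, at 0.0673, 0.0419 and 0.0362 FPKM against 1.43 to 1.76 (median 1.53), and Nr4a2, an orphan nuclear receptor, at 4.72, 2.93 and 4.20 against 7.70 to 15.6 (median 12.5). Those above included Mef2c, Tbr1, Cux2 and Meis2. Among 26 measured adhesion genes, 4 lay below and 12 above, with Cntn4, a contactin, at 5.06, 4.46 and 5.16 against 1.41 to 2.72 (median 1.75) and Cdh22, a cadherin, at 8.18, 8.87 and 6.46 against 2.62 to 3.84 (median 3.73). The median of the adhesion list was 0.30, and 0.041 with equal FPKM sums.

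Genes of the sodium-potassium pump and its partners mostly overlapped between the sides. Of 11 measured, 1 lay below and 2 above, near the shares over all genes of 11.6% and 13.5%, with a median of 0.017. Atp1b1, the β1 subunit that carries the pump to the membrane, stood lower, at 343, 330.2 and 346 FPKM against 372 to 463 (median 441), with 18.7% of its exon bases shared with another gene. Fxyd7, a neuronal regulator of the pump, stood higher, at 73.6, 73.8 and 107 against 35.4 to 51.4 (median 37.7). Neither gene overlapped between the sides.

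**Figure D3:**
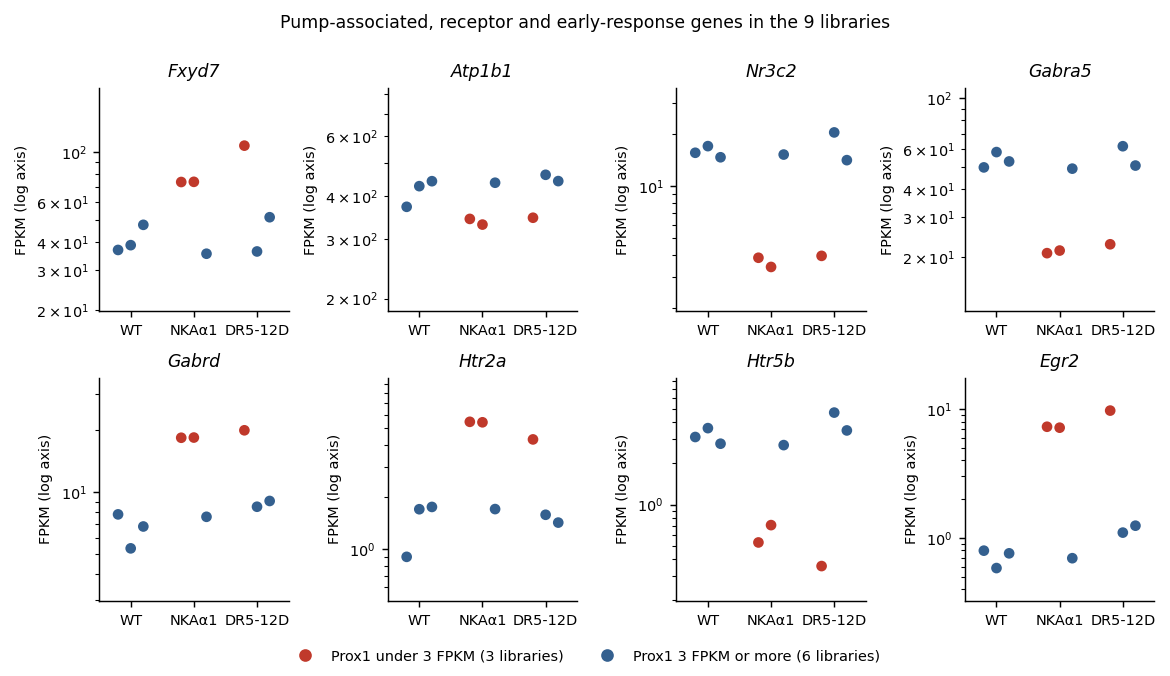
FPKM (log axis) of 8 pump-associated, receptor and early-response genes in the 9 libraries by labelled group, with 1 point per library, red for the 3 low-Prox1 libraries and blue for the other 6. Nr3c2 lies between 3.42 and 3.97 FPKM in the red points and between 14.1 and 20.4 FPKM in the blue points, whatever the labelled group.

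The split is not balanced over the labelled groups, since CRS-WT holds none of the 3 libraries, CRS-NKAα1 holds 2 and CRS-WT-DR5-12D holds 1. It was therefore repeated inside each group that holds both kinds, where the labelled treatment is shared. Inside CRS-NKAα1, replicates 1 and 2 against replicate 3, 343 genes were called lower (1.93%) and 344 higher (1.94%). Inside CRS-WT-DR5-12D, replicate 1 against replicates 2 and 3, 253 were called lower (1.43%) and 317 higher (1.79%). These contrasts share no library. Of the lower genes, 164 were shared, 47.8% of the first list and 64.8% of the second, and of the higher genes 205 were shared, 59.6% and 64.7%. The 1 gene called higher in the first and lower in the second was Gm25220, a small nuclear RNA model resting on at most 7 fragments in any library, and 0 genes were called the other way round. Across 17753 genes the differences inside the groups had Pearson r = 0.716 and Spearman rho = 0.632, a description across genes, which are not independent replicates.

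The size of the differences was close in both groups for most named genes. C1ql2 differed by −3.81 inside CRS-NKAα1 and by −4.29 inside CRS-WT-DR5-12D, Fibcd1 by −3.43 and −3.58, Cabp7 by −2.96 and −2.95, Dkkl1 by 3.53 and 3.68, Mef2c by 2.31 and 2.31 and Egr2 by 2.28 and 2.31, all on the log2 scale. Less even were Cited4, at 2.76 and 1.28, Trbc2, at 2.91 and 4.53, and Agt, at −3.42 and −2.28. The sign inside the groups was fixed for these genes by their choice, since no library of one side overlapped the other. With group added as a term beside the split, 219 genes were called lower and 275 higher. This call asked for no overlap only inside each group that holds both kinds, a looser rule than over all libraries. The upper-layer list then had a median of 0.86, the early-response list 1.35 and the granule cell list, Prox1 included, −0.75.

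**Figure D4:**
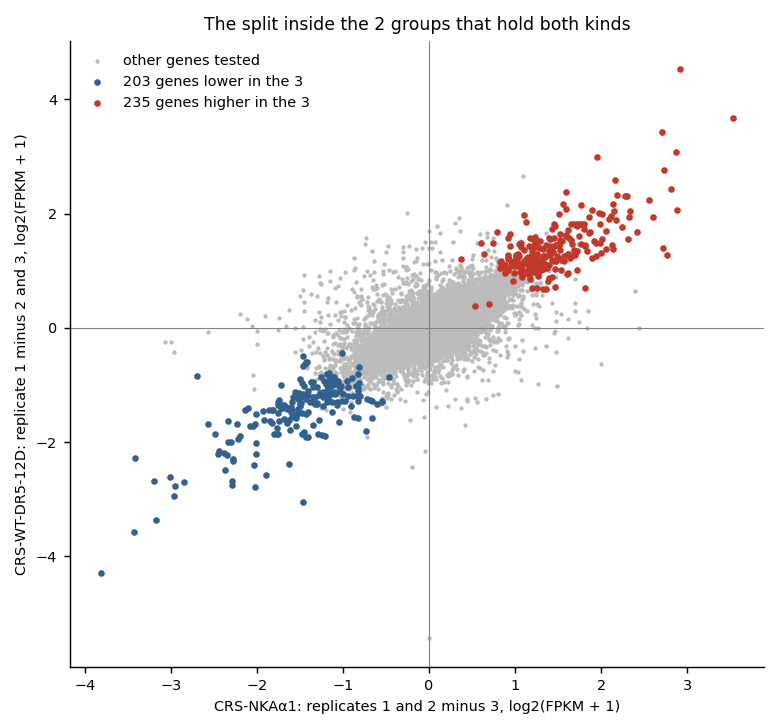
Difference of log2(FPKM + 1) inside CRS-NKAα1 (replicates 1 and 2 minus 3, horizontal) and inside CRS-WT-DR5-12D (replicate 1 minus 2 and 3, vertical), with 1 point per gene for 17753 genes, blue for the 203 genes called lower and red for the 235 called higher over all libraries. The coloured genes lie along the diagonal in the lower left and upper right, which their choice from these libraries sets in part.

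**Figure D5:**
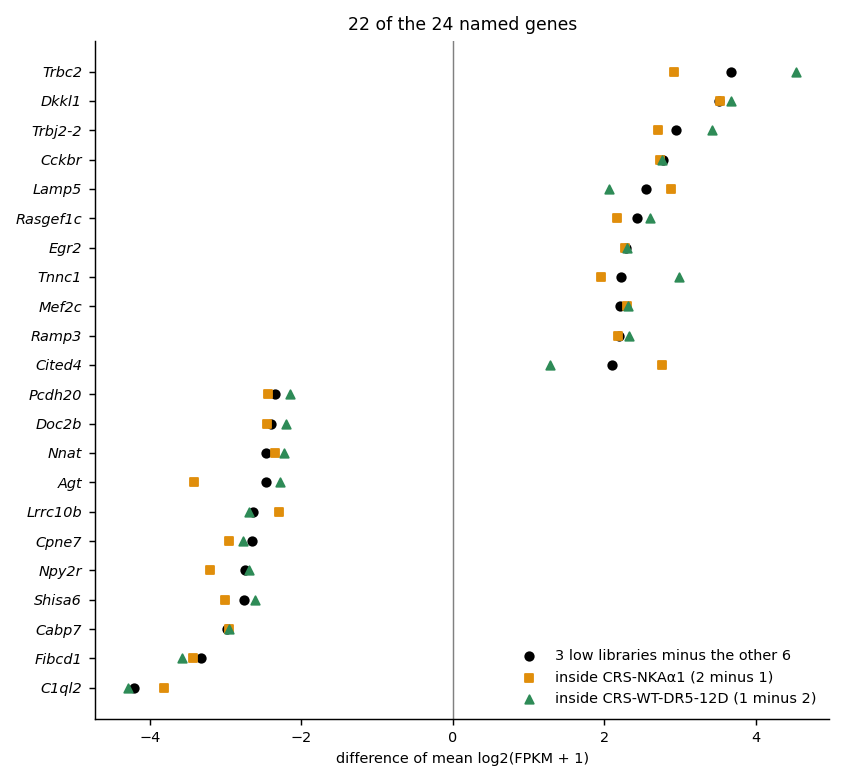
Difference of the mean log2(FPKM + 1) of 22 of the 24 named genes over all libraries (circles), inside CRS-NKAα1 (squares) and inside CRS-WT-DR5-12D (triangles). The circles reach from C1ql2 at −4.21 to Trbc2 at 3.67, and the choice of the genes fixes the side of 0 on which all 3 marks lie.

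The 3 low-Prox1 libraries were compared with each other as well. Among the 17753 genes, 338 had the DR5-12D library at least 1 log2 unit from the mean of the CRS-NKAα1 pair, and outside the pair. Of these 338, 72 were higher in the DR5-12D library. The 438 genes called by the split were chosen because the low-Prox1 libraries lay on the same side, which may lower their number here. Of these 438, 4 were among the 338: Dcn and Spink8, lower in the DR5-12D library, and Tnnc1 and Npas4, higher. The genes that differed most by this measure at a mean FPKM of at least 5 were S100a9, an alarmin of neutrophils, at 0.585 FPKM in the DR5-12D library against 16.4 and 110.7, and Lcn2, the iron-carrier protein lipocalin 2, at 0.364 against 28.5 and 47.0. The gap between these labelled groups held in their other libraries too. S100a9 stood at 43.8 FPKM in CRS-NKAα1 replicate 3 and at 1.01 and 1.06 in CRS-WT-DR5-12D replicates 2 and 3, and Lcn2 at 31.2 against 0.482 and 3.09. In CRS-WT, S100a9 stood at 5.82, 18.9 and 10.7 FPKM and overlapped CRS-NKAα1. Lcn2 stood there at 1.97, 19.1 and 4.94 and overlapped CRS-WT-DR5-12D. Neither gene was called by the split.

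Because 2 labelled groups hold both sides, the choice of the 438 called genes sets a large spread inside those groups. Their median SD inside groups was 0.66 on the log2 scale, and 0.16 when the low-Prox1 libraries were taken apart, while over all genes the values were 0.15 and 0.12. In the labelled comparisons, fitted with limma over all 9 libraries, the standard error of a difference had a median of 0.46 for the 438 genes and 0.12 for all. The called genes had a median exon length of 3183 bases on the lower and 3519.5 on the higher side, beside 3539 for all genes. Protein-coding genes made up 81.3%, 79.1% and 75.8%, and 36%, 30.6% and 39.9% shared exon bases with another annotated gene, in the order lower, higher and all. Reads of overlapping genes cannot be told apart where the strand is not given.

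The labelled comparisons called 0 of the genes that the split called, and the large spread that their choice set inside groups works against such calls. At an adjusted p under 0.05 limma called 4 genes (0.0225%) between CRS-NKAα1 and CRS-WT, 5 (0.0282%) for the antibody group against CRS-WT, and 91 (0.513%) between CRS-WT-DR5-12D and CRS-NKAα1, comparisons that share libraries. These counts moved with the processing: rescaled to equal FPKM sums, limma called 7451 genes for CRS-NKAα1 (7353 lower) and 975 for CRS-WT-DR5-12D (947 lower) against CRS-WT, where all 4 and all 5 were higher on the deposited scale. Those sums include Gm23935, at 17597, 15719 and 76096 FPKM in CRS-WT and 115681 to 204782 in the libraries of both other groups. Its part in these counts was not tested. With upper-quartile scaling limma called 4, 5 and 89 genes, and with a replicate block 0, 0 and 40. Of the 438 genes 0 were called by limma in each comparison on the deposited scale. There 76, 10 and 4 of them (17.4%, 2.28% and 0.913%) had an unadjusted p under 0.05, beside 14.1%, 13.0% and 8.83% of all genes. These shares also depend on how the 438 were chosen. With the low-Prox1 state as a covariate the calls numbered 6 (0.0338%), 23 (0.13%) and 120 (0.676%), and the median standard error of the 438 genes became 0.15, 0.13 and 0.13. Of the 438, 1, 1 and 3 were then called. The single gene in both comparisons with CRS-WT was Gm11973, an antisense RNA model at 6.94, 6.84 and 7.39 FPKM in the 3 libraries, 4.46, 5.94 and 4.97 in the other CRS-NKAα1 and CRS-WT-DR5-12D libraries and 1.46, 1.36 and 1.75 in CRS-WT. Its log2 difference from CRS-WT with the covariate was 1.17 in CRS-NKAα1 (limma adjusted p = 0.0278) and 1.33 in CRS-WT-DR5-12D (limma adjusted p = 0.00517). The split that set the covariate also chose this gene, so these p values may be too small. CRS-WT holds no low-Prox1 library and CRS-NKAα1 only 1 of the other side, so the fit assumes 1 shared offset. The 3 called between CRS-WT-DR5-12D and CRS-NKAα1 were Sparc, a matrix glycoprotein, Arc and Nr4a1, an orphan nuclear receptor of the early response.

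Without the 3 libraries, limma called 41 genes (0.231%), 6 (0.0338%) and 95 (0.535%) in the same order of comparisons. CRS-NKAα1 then rests on replicate 3 alone, which is assumed to vary like the other groups. Of the 41 genes, 40 were higher in that library. The calls shared with the fit of all 9 libraries numbered 3 of 4, 1 of 5 and 36 of 91. None of the 438 genes was among the calls of limma in this fit, and 61, 52 and 52 of them (13.9%, 11.9% and 11.9%) had an unadjusted p under 0.05, beside 8.93%, 14.1% and 6.93% of all genes.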

How the data were processed

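Bulk RNA-seq was done on 9 libraries. Per the labels' protocols, total RNA was extracted with TRIzol, checked on a Bioanalyzer and made into size-selected libraries. Per the submitters' processing notes, cutadapt, HISAT2 and RSEM 1.2.30 were used with GRCm38, with neither annotation release nor strandedness given in the sources used here. The authors deposited 1 table of FPKM for 53465 genes, and its 9 columns were mapped by name.

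FPKM times the exon length of GENCODE vM21 gave whole fragments within 0.02 for over 95% of values under 500, which gave the depth. Values were taken as log2(FPKM + 1) for the 17753 genes whose mean FPKM reached 0.5, among 35485 above 0. The added 1 shrinks differences of low genes. Libraries with Prox1 under 3 FPKM were set beside the rest, with no test. Labelled groups were compared with limma 3.58.1 in R 4.3.3 (group means, trend, two-sided, Benjamini-Hochberg over all genes), which was tested on simulated data first. Python 3.11.15, numpy 2.4.6, pandas 2.3.3 and matplotlib 3.10.9 made the tables and plots. The split, its members and the gene lists were chosen with earlier results of these data known. Named genes are the markers, the 12 largest differences each way at a mean FPKM of at least 1 with a gene name, up to 5 members of each list, and Atp1b1, and others named in the text from the lists were chosen after their values were seen. Some genes the rule names are not reported here. Alternatives were another pseudocount, other filters and scalings, a replicate block, the low-Prox1 state as a covariate, and libraries left out.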

Additional observations from a re-analysis of the deposited data

Results flagged for a closer look

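In 5 results the low-Prox1 and the other libraries stood in opposite order inside CRS-NKAα1 and inside CRS-WT-DR5-12D, with no overlap in either. The difference of the split inside CRS-WT-DR5-12D minus that inside CRS-NKAα1 is given. The lists, up to 5 members of each and the named genes were screened. No overlap is common among 3 libraries. Of 17753 genes, 6810 lay below and 6480 above inside CRS-NKAα1, and 6904 and 6537 inside CRS-WT-DR5-12D. None of these differences was tested.

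The deep-layer cortical list had a mean log2 difference of −0.082 inside CRS-NKAα1 and 0.174 inside CRS-WT-DR5-12D, which lie 0.256 apart. For the neuropeptide list the values were −0.149 and 0.218, which lie 0.367 apart. For the list of patterning and identity transcription factors they were 0.131 and −0.021, which gives −0.151. Bmp4, a growth factor made by oligodendrocyte precursors, differed by 0.195 inside CRS-NKAα1 and by −0.509 inside CRS-WT-DR5-12D, which gives −0.704. Hbb-bt, an adult β globin of red blood cells, differed by 0.371 and −0.303, which gives −0.674.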

How the results depend on the processing

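The 438 genes called by the split became 926 with a pseudocount of 0.1, 830 rescaled to equal FPKM sums (TPM) and 50 at a difference of at least 2, and 434 to 486 when 1 library was left out. The 687 inside CRS-NKAα1 became 1520 with a pseudocount of 0.1 and 1165 as TPM (756 to 855 with 1 library left out), and the 570 inside CRS-WT-DR5-12D became 1429 and 935 (653 to 665). The leave-one-out settings inside groups were chosen after seeing the data. Limma's 4 calls for CRS-NKAα1 against CRS-WT became 0 when no filter was set (3538 had an unadjusted p under 0.05), 7451 as TPM and 41 without the 3 low-Prox1 libraries, with 0 to 25 when 1 library was left out (25 without CRS-NKAα1 replicate 3). The 5 for CRS-WT-DR5-12D against CRS-WT became 0 with no filter (3369 unadjusted), 975 as TPM and 23 with the covariate, with 0 to 21 (21 without CRS-NKAα1 replicate 1). The 91 for CRS-WT-DR5-12D against CRS-NKAα1 became 30 with no filter, with 1 to 194 (194 without CRS-NKAα1 replicate 1, and 1 without CRS-WT-DR5-12D replicate 2). The TPM shift of all genes had a median of −0.42 and −0.33 against CRS-WT, and the part of Gm23935 in it was not tested. Atp1b1 turned from −0.17 to 0.087 with the covariate and to 0.0844 without the 3 libraries in CRS-NKAα1 against CRS-WT. With the replicate number as a block, limma called 0 (2547 unadjusted), 0 (2217 unadjusted) and 40 genes in the order above. Deviations of same-numbered libraries had correlations of −0.35 to 0.497, the largest of them between groups that both hold low-Prox1 libraries. Since not every pair passed 0.1 and no label ties the numbers, they were not treated as pairs. Each move was set beside the SD over the 3 low-Prox1 libraries, which come from 2 labelled groups. Of the single list medians, 408 moved by less than that SD and 147 by more. For single named genes these numbers were 342 and 48, with 0 named genes reversed. Their choice for large gaps between the sides largely fixed that 0. Causes were not tested. The side of a library rests on 3 against 6 samples, and genes of few fragments, such as Trbj2-2, are limited by depth.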
